A study of Mus musculus with 6 samples.

Results

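The 10 genes described here encode the parts of the cell that hold, destroy and use beta-catenin: Ctnnb1 (beta-catenin itself), the kinases Gsk3a and Gsk3b, the scaffolds Axin1, Axin2 and Apc, and the DNA-binding factors Lef1, Tcf7, Tcf7l1 and Tcf7l2. They were chosen by name from the 29616 genes of the deposited table, all 10 had a row, and all 10 were among the 17442 genes tested. The libraries were made from cells of the bones of C57BL/6 mice, which the labels call bone cells and the study's text calls Osteocalcin-positive cells isolated after the marrow was removed. The 3 dexamethasone libraries came from mice that had received this synthetic glucocorticoid at 0.08 µg/g each day for 4 weeks from 8 weeks of age. The 3 control libraries came from mice without dexamethasone, taken over the same 4 weeks from the same 8 weeks of age. The study names littermates as controls. Its figure legends give saline as the control of the bone imaging, and its text calls the controls of the Osteocalcin-positive cells non-treated. The comparison addressed how glucocorticoid treatment, which causes bone loss, alters gene expression in osteoblast-lineage cells. The labels call the libraries of a group biological replicates, but whether each came from a single mouse or a pool of mice is not given in the sources used here. The libraries were sequenced from stranded mRNA.

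In a cell without a Wnt signal, axin and APC hold beta-catenin so that GSK3 and casein kinase 1 phosphorylate it, which marks it for destruction. A Wnt signal disables this complex, beta-catenin accumulates and enters the nucleus, and there it binds TCF/LEF factors and switches their target genes on. In bone the pathway is known to favor the formation and survival of osteoblasts, and glucocorticoids are known to restrain it.

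The transcripts of the pathway's core moved apart in the dexamethasone libraries. Axin2, Tcf7 and Tcf7l2 fell, to between 30.8% and 49.9% of their control means, and Lef1 rose to 146.7%. The other members stayed within a narrow band, from 88.4% of the control mean for Gsk3b to 121.6% for Axin1. With limma, 9 of the 10 members passed at a Benjamini-Hochberg adjusted p-value of 0.05, taken over the whole table, which 72.5% of all tested genes also did. Of these 9 members, 4 were higher and 5 lower with dexamethasone, against 37.2% and 35.2% of all tested genes. With the additional cut-off of a log2 fold change of 1, the number was 3 of 10, against 22.3% of all tested genes. All 3 were lower, as were 10.6% of all tested genes. The values of the groups did not overlap for 9 members, against 74.7% of all tested genes, and Tcf7l1 was the exception. The median log2 fold change was -0.03 over the 10 members and 0.0007 over all tested genes. Read against these shares, the numbers of members that passed or did not overlap are no result about the members as a list.

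**Figure D1:**
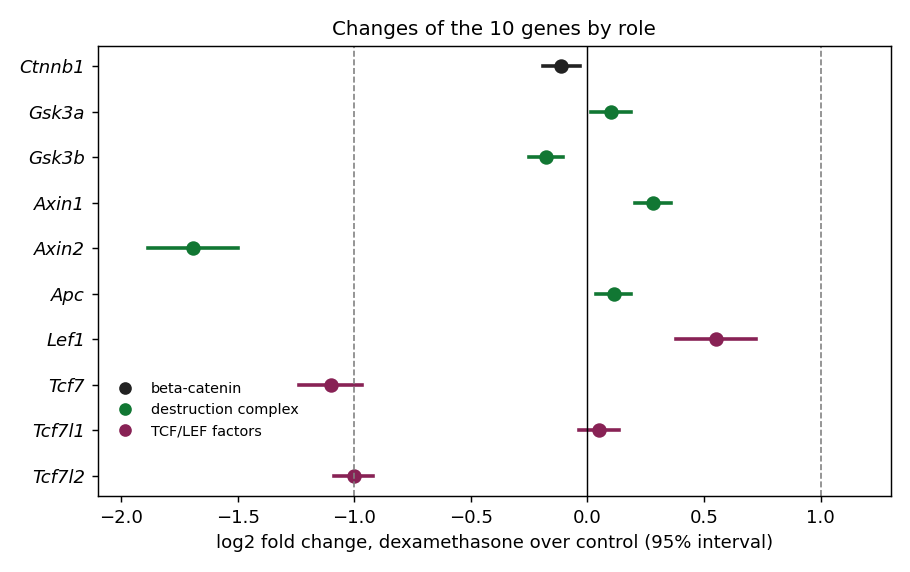
The log2 fold change of each member with its 95% interval from limma, colored by role (beta-catenin, destruction complex, TCF/LEF factors), with dashed lines at the cut-offs of -1 and 1. Axin2 (-1.69), Tcf7 (-1.10) and Tcf7l2 (-1.003) lie at or past the lower line, Lef1 (0.55) lies highest, and the interval of Tcf7l1 includes 0.

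The recovered read totals were between 72596611 and 89910728 per library, and the fewest reads behind any member in a library were 122, for Axin2 in dexamethasone replicate 3. Replicate libraries differed by more than sampling noise (chi-square per degree of freedom, 3.27 to 26.1). When all libraries were set to the same total, the median log2 fold change of all tested genes moved to -0.11, and after quantile normalization to -0.07. Small differences therefore depended on the scaling, and this is given beside each member it touched. Of 10 genes known to respond to glucocorticoids, all passed as higher with dexamethasone, against 37.2% of all tested genes. The cut-off of 1 was passed by 9 of them, against 2037 of the 17442 tested genes as higher. Of 13 osteoblast and osteocyte markers with a row, 8 were past the cut-off as lower, against 10.6% of all tested genes. Among them were the type I collagen genes Col1a1 and Col1a2. Against 2037 of the 17442 tested genes, another 2 were past the cut-off as higher. These were the bone matrix gene Spp1, with 32469 to 34314 normalized counts in the control and 1246067 to 1301705 in the dexamethasone libraries, and Dmp1, an osteocyte matrix gene named after its values were seen, with 36 to 41.3 and 5331 to 5981. Osteocalcin (Bglap), the protein by which the cells were isolated and a gene with near-identical copies, had 98.2 to 122.1 normalized counts in the control libraries and 9.54 to 15.1 in the dexamethasone libraries. Its copy Bglap2, named after its values were seen, had 299.7 to 338.8 and 29.6 to 33.7. Both levels are low beside the recovered totals of at least 72596611 reads per library. Sost was not analysed here. All 10 proliferation genes were higher and past the cut-off, which 22.3% of all tested genes passed in either direction. Their median log2 fold change was 2.55, and their summed level was 37241 to 39867 normalized counts in the control and 223917 to 238703 in the dexamethasone libraries. Whether this difference in proliferation genes had a part in the changes of the members was not tested. In bulk libraries, fewer cells of a type and less RNA per cell cannot be told apart.

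Ctnnb1, which encodes beta-catenin, the pathway's coactivator and also a partner of cadherins at the membrane, was the most abundant member, also per kilobase. Control replicates 1 to 3 held 30206, 32647 and 31912 normalized counts of it, against 29956, 28683 and 29060 for dexamethasone replicates 1 to 3. The dexamethasone libraries were all lower than the control libraries, but the gap between the closest pair was smaller than the spread within the control group. The means were 31588 ± 1252 (SD, n = 3) and 29233 ± 654 (SD, n = 3), a log2 fold change of -0.11 (95% interval -0.19 to -0.03, adjusted p = 0.011 in limma). The difference did not pass without the mean-variance trend (adjusted p = 0.067 in limma) or without control replicate 2 (adjusted p = 0.0666 in limma) or control replicate 3 (adjusted p = 0.0602 in limma). The scaling moved it the other way, to -0.23 at the same total (adjusted p = 2.28e-07 in limma) and -0.21 after quantile normalization (adjusted p = 3.52e-07 in limma), lower with dexamethasone in each case. Ulk4 and a microRNA gene overlap Ctnnb1, with 14.6% of its exon bases covered on the opposite strand. Ulk4 itself had 384 to 425.1 normalized counts in the control and 245.3 to 285.6 in the dexamethasone libraries, a small part of the level of Ctnnb1.

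**Figure D2:**
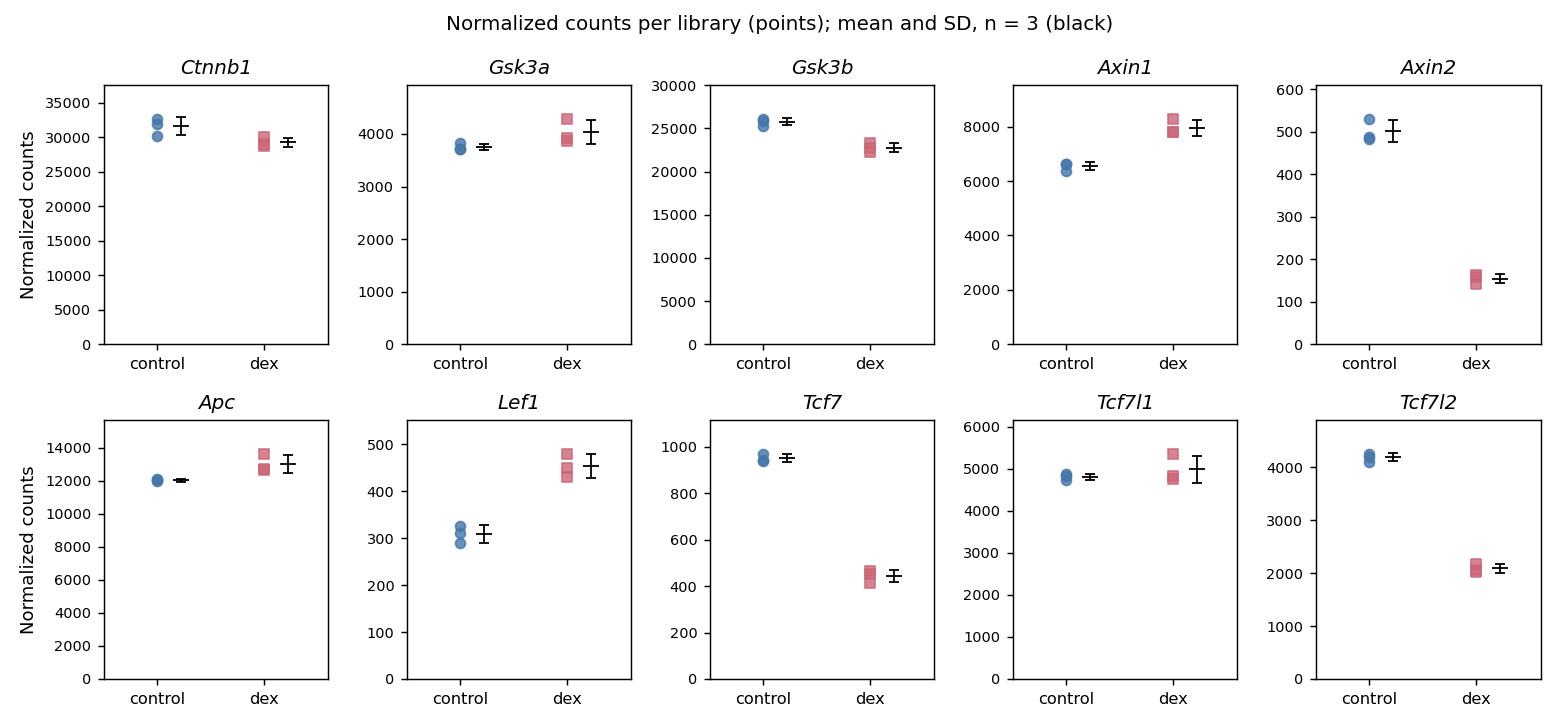
Normalized counts of the 10 members in each of the 3 control and 3 dexamethasone libraries (points), with the mean and SD of each group in black, on axes that start at 0. Axin2, Tcf7 and Tcf7l2 show the widest gaps below the control libraries, Lef1 lies above them, and for Tcf7l1 dexamethasone replicate 1 lies above the rest.

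Gsk3a and Gsk3b encode the serine/threonine kinases GSK3 alpha and beta, which act alike on beta-catenin. Gsk3b had 25922, 25296 and 26127 normalized counts in the control replicates and 23345, 22681 and 22327 in the dexamethasone replicates, with no overlap. Its mean fell from 25782 ± 433 (SD, n = 3) to 22784 ± 517 (SD, n = 3), a log2 fold change of -0.18 (95% interval -0.25 to -0.11, adjusted p = 7.53e-05 in limma). Gsk3b stayed past the threshold in each of the 16 other settings tried, with log2 fold changes of -0.33 to -0.16. Gsk3a had 3720, 3823 and 3715 normalized counts in the control replicates and 4289, 3874 and 3930 in the dexamethasone replicates. Dexamethasone replicate 1 was clearly the highest, and the other dexamethasone libraries lay just above the controls. For Gsk3a the log2 fold change was 0.10 (95% interval 0.02 to 0.19, adjusted p = 0.0314 in limma), and it was -0.01 at the same total (adjusted p = 0.753 in limma) and -0.05 after quantile normalization (adjusted p = 0.141 in limma). Without dexamethasone replicate 1 it was 0.06 (adjusted p = 0.189 in limma), and it also failed to pass without control replicate 1 (adjusted p = 0.0834 in limma) or 3 (adjusted p = 0.0992 in limma), without the trend (adjusted p = 0.124 in limma) and without a filter on low values (adjusted p = 0.0534 in limma). The exon bases of Gsk3a are overlapped to 28.3% on the opposite strand by 9130221H12Rik, which had 91.8 to 130.9 normalized counts in the control and 107.9 to 128.8 in the dexamethasone libraries.

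Within each library, Gsk3b exceeded Gsk3a, and the log2 ratio of the normalized counts of Gsk3b over Gsk3a does not depend on the scaling by size factors. It was 2.80, 2.73 and 2.81 in the control replicates and 2.44, 2.55 and 2.51 in the dexamethasone replicates. All dexamethasone libraries were lower, by 0.28 on average (exact permutation test, two-sided, p = 0.1, the smallest that 3 against 3 libraries allow, and 0.114 after adjustment over the 8 relations computed within libraries). The log2 ratio of Ctnnb1 over Gsk3b was 0.22, 0.37 and 0.29 in the control and 0.36, 0.34 and 0.38 in the dexamethasone replicates. These values overlapped, and their mean difference was 0.07 (exact permutation test, two-sided, p = 0.3, adjusted p = 0.3).

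The axin scaffolds changed in opposite directions. Axin2, whose gene is itself switched on by beta-catenin and TCF/LEF and so serves as a common readout of the pathway, showed the largest change of the 10 members. It had 482.9, 530.4 and 488.6 normalized counts in the control replicates and 163.1, 158.1 and 141.9 in the dexamethasone replicates. The highest dexamethasone library lay far under the lowest control library. The mean fell from 500.6 ± 25.9 (SD, n = 3) to 154.3 ± 11.1 (SD, n = 3), a log2 fold change of -1.69 (95% interval -1.886 to -1.499, adjusted p = 2.78e-14 in limma). Over the 16 other settings this log2 fold change was between -1.81 and -1.63. Of all tested genes, 90.3% had a smaller absolute log2 fold change than Axin2.

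Axin1, the scaffold that the complex normally depends on, had 6386, 6634 and 6618 normalized counts in the control replicates and 8293, 7792 and 7802 in the dexamethasone replicates, with no overlap. Its mean was 6546 ± 139 (SD, n = 3) in the control and 7962 ± 287 (SD, n = 3) in the dexamethasone libraries, a log2 fold change of 0.28 (95% interval 0.21 to 0.36, adjusted p = 2.26e-07 in limma). It was 0.17 at the same total and 0.07 after quantile normalization (adjusted p = 0.0217 in limma), higher with dexamethasone in each case. Axin2 was the rarer scaffold in every library. The log2 ratio of Axin2 over Axin1 was -3.73, -3.65 and -3.76 in the control replicates and -5.67, -5.62 and -5.78 in the dexamethasone replicates, a difference of -1.98 (exact permutation test, two-sided, p = 0.1, adjusted p = 0.114). The groups did not overlap, and the gap between them was many times the spread within either group.

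Apc, the large scaffold that hands beta-catenin on for destruction, had 12104, 12017 and 11961 normalized counts in the control replicates and 13651, 12628 and 12742 in the dexamethasone replicates. The control libraries lay close together, and dexamethasone replicate 1 was the highest. Its log2 fold change was 0.11 (95% interval 0.04 to 0.19, adjusted p = 0.00795 in limma). Its direction turned with the scaling, at -0.0020 for the same total (adjusted p = 0.954 in limma) and -0.07 after quantile normalization (adjusted p = 0.0177 in limma). Without the mean-variance trend the adjusted p was 0.0592 in limma.

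Of the 4 TCF/LEF factors, Tcf7 and Tcf7l2 fell and Lef1 rose, while Tcf7l1 did not pass. Tcf7 encodes TCF1, best known from T cells and also made by osteoblasts. It had 971.3, 939.4 and 942 normalized counts in the control replicates and 465.5, 413.1 and 451.2 in the dexamethasone replicates. The groups were far apart beside their spread, with means of 950.9 ± 17.7 (SD, n = 3) and 443.3 ± 27.1 (SD, n = 3). This is a log2 fold change of -1.10 (95% interval -1.24 to -0.97, adjusted p = 1.2e-13 in limma), and between -1.22 and -1.05 over the 16 other settings.

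Tcf7l2 encodes TCF4, a broadly used nuclear partner of beta-catenin. It had 4109, 4260 and 4194 normalized counts in the control replicates and 2182, 2065 and 2024 in the dexamethasone replicates. The dexamethasone libraries had about as much as 49.9% of the control mean, with no overlap. In log2 fold change this was -1.003 (95% interval -1.09 to -0.92, adjusted p = 5.74e-17 in limma), which lies just past the cut-off of 1. In 13 of the 16 other settings it remained past the cut-off. It was -0.9904 without control replicate 2, -0.9943 without dexamethasone replicate 2 and -0.9802 without dexamethasone replicate 3.

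Lef1 encodes the lymphoid enhancer-binding factor and was the rarest TCF/LEF gene per kilobase in both groups. It had 312.1, 289.6 and 326 normalized counts in the control replicates and 480.8, 450.2 and 430.2 in the dexamethasone replicates. Each dexamethasone library was above each control library. The mean rose from 309.3 ± 18.4 (SD, n = 3) to 453.7 ± 25.4 (SD, n = 3), a log2 fold change of 0.55 (95% interval 0.38 to 0.72, adjusted p = 1.93e-06 in limma), and the range over the 16 other settings was 0.44 to 0.59. Of the exon bases of Lef1, 13.7% are overlapped on the opposite strand by Gm43352, which had at most 18.6 normalized counts in any library.

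Tcf7l1 encodes TCF3, which acts mainly as a repressor of the pathway's targets. It had 4726, 4838 and 4868 normalized counts in the control replicates and 5364, 4830 and 4766 in the dexamethasone replicates. Only dexamethasone replicate 1 lay above the controls, and the other dexamethasone libraries lay among them. It showed a log2 fold change of 0.05 (95% interval -0.04 to 0.14, adjusted p = 0.294 in limma). It was -0.06 at the same total (adjusted p = 0.109 in limma), -0.13 after quantile normalization (adjusted p = 0.00203 in limma) and -0.0037 without dexamethasone replicate 1, so no direction is given for this gene.

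**Figure D3:**
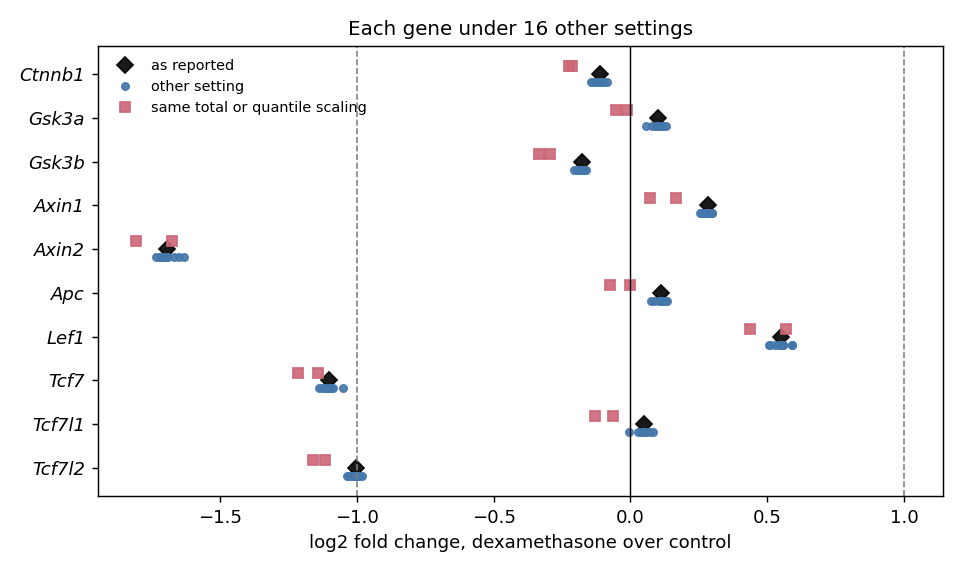
The log2 fold change of each member as reported (black diamonds), with the libraries at the same total or quantile-normalized (red squares), and under the other settings tried (blue points), which make up 16 settings in all. The red squares of Gsk3a, Apc and Tcf7l1 lie on the other side of 0 from the reported value, Axin2, Tcf7 and Lef1 stay far from 0 in every setting, and Tcf7l2 lies on the line at -1.

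Lef1 and Tcf7 are also strongly expressed in T cells, so markers of these cells were measured in the same libraries. Of 15 T cell markers, 11 had a row, and their summed level was 289.2 to 335.6 normalized counts in the control and 131.9 to 139.5 in the dexamethasone libraries. Most of the control sum was Bcl11b, a transcription factor gene with 183.7 to 223.1 normalized counts in the control and 5.45 to 8.14 in the dexamethasone libraries. The next were Cd28, with 52.8 to 64.1 and 93.7 to 107, and Zap70, with 14.7 to 26.4 and 2.33 to 5.45. The receptor chain gene Cd3d, which defines T cells, had 1, 1 and 3 reads in the control replicates and 0 in each dexamethasone library. The 10 pan-hematopoietic markers summed to 140.6 to 198.3 and 813.7 to 880.2 normalized counts, the latter mostly Itgb2 and Cd53, with at most 5 reads of Ptprc, which encodes CD45. This list was split, with 2 genes past the cut-off as higher and 2 as lower. The latter, named after their values were seen, were Laptm5 (log2 fold change -1.49) and Coro1a (-1.77), each with at most 25 reads in any library. The kinase gene Lck, named after its values were seen, had 12.9 to 17.6 normalized counts in the control and 2.33 to 8.59 in the dexamethasone libraries. Bcl11b, Zap70 and Lck were thus lower with dexamethasone, and Cd28 was higher. Cd4, Cd5 and Cd8a had at most 4 reads in any library and Cd247 at most 11, with no fall with dexamethasone. The part of T cells in the changes of Tcf7 and Lef1 was not tested.

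Other marker lists differed between the groups as well. Of 14 endothelial markers, 12 had a row, and their summed level was 6558 to 6818 normalized counts in the control and 8572 to 9697 in the dexamethasone libraries. Flt1, Vwf and Kdr made most of it, and the defining marker Cdh5 had at most 2 reads in any library. The 9 chondrocyte markers summed to 6420 to 6852 and 22296 to 25141 normalized counts, most of it Sox9, which is also a target of the pathway. This list was split. Sox9 and Col2a1 (log2 fold change 1.90) were past the cut-off as higher, and Comp (-1.23) and Hapln1 (-1.42) as lower. The defining marker Acan had at most 6 reads in any library. The 8 adipocyte markers summed to 274.5 to 357.1 and 1920 to 2066. Fabp4 made most of that rise, with 1.76 to 2.75 and 1409 to 1521 normalized counts, and Cebpa had 244.2 to 326.8 and 482.9 to 610.5, whereas Pparg had a log2 fold change of -0.0012 (adjusted p = 0.997 in limma) and the defining marker Adipoq had at most 9 reads in any library. Of 10 smooth muscle and pericyte markers, 9 had a row, and they summed to 172220 to 181686 and 43225 to 47168. This difference was mostly Acta2, with 140695 to 148313 and 11939 to 12924 normalized counts, whereas Cspg4 rose (log2 fold change 0.43, adjusted p = 5.64e-10 in limma) and Pdgfrb did not pass (log2 fold change -0.08, adjusted p = 0.0849 in limma). Named after their values were seen, Notch3 (log2 fold change -1.27, adjusted p = 5.86e-17 in limma) and Myh11 (-0.89, adjusted p = 0.0102 in limma) were also lower. The part of these differences in the changes of Axin2, Lef1, Tcf7 and Tcf7l2 was not tested.

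Levels can be compared between members only per length, here as normalized counts per kilobase of each gene's longest annotated transcript. In the control libraries the order ran from Ctnnb1 (8719 ± 346, SD, n = 3) and Gsk3b (3105 ± 52.1) through Axin1 (1733 ± 36.8), Gsk3a (1660 ± 27), Tcf7l1 (1581 ± 24.6), Tcf7l2 (1127 ± 20.4) and Apc (938.8 ± 5.62) to Tcf7 (384.8 ± 7.17), Axin2 (117.5 ± 6.08) and Lef1 (84.6 ± 5.02). The libraries of Axin1 and Gsk3a overlapped in this order, and those of all other neighbors were separate. With dexamethasone, 2 pairs changed places. Apc (1015 ± 43.8) lay above Tcf7l2 (562.6 ± 22), and Lef1 (124.1 ± 6.96) lay above Axin2 (36.2 ± 2.61). The change of place of Apc and Tcf7l2 depends on the length used. The longest transcripts have 12811 and 3715 bases, whereas all annotated exons cover 16116 and 8775 bases. Per kilobase of all annotated exons, Apc lay above Tcf7l2 in the control libraries too, whereas Lef1 and Axin2 still changed places. In the dexamethasone libraries the only neighbors that overlapped were Gsk3a (1784 ± 99.6) and Tcf7l1 (1639 ± 108).

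The pool of TCF/LEF transcripts was smaller with dexamethasone and differed in its makeup. The summed level of the 4 factors was 3138, 3196 and 3200 normalized counts per kilobase in the control replicates and 2670, 2434 and 2412 in the dexamethasone replicates, 78.8% of the control mean. Tcf7l1 held 49.8% ± 0.254 (SD, n = 3) of the sum in the control and 65.4% ± 0.556 (SD, n = 3) in the dexamethasone libraries. The share of Tcf7l2 was 35.5% ± 0.354 and 22.5% ± 0.434, that of Tcf7 12.1% ± 0.359 and 7.17% ± 0.363, and that of Lef1 2.66% ± 0.162 and 4.95% ± 0.0939. For none of the 4 shares did the groups overlap (exact permutation test, two-sided, p = 0.1 each, adjusted p = 0.114). With the length of all annotated exons in place of the longest transcript, the shares of Tcf7l1 were 58.4% and 73.5%, those of Tcf7l2 22.7% and 13.8%, those of Tcf7 17.2% and 9.77%, and those of Lef1 1.68% and 2.99%, with the same directions. The log2 ratio of Lef1 over Tcf7l2 was -3.72, -3.88 and -3.69 in the control replicates and -2.18, -2.20 and -2.23 in the dexamethasone replicates, a difference of 1.56 (exact permutation test, two-sided, p = 0.1, adjusted p = 0.114). Counts per gene do not separate the full-length forms from the shortened forms of these factors that lack the beta-catenin-binding end.

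**Figure D4:**
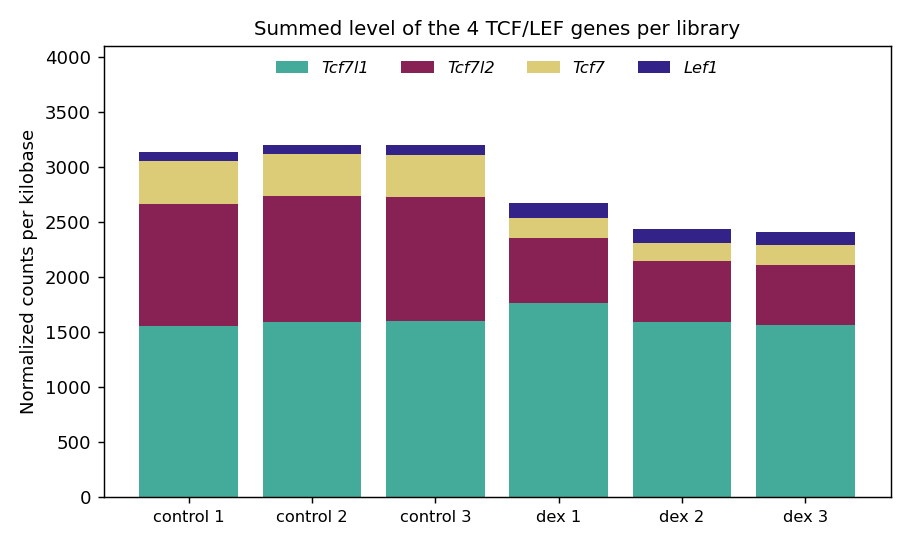
Summed level of Tcf7l1, Tcf7l2, Tcf7 and Lef1 in each library, in normalized counts per kilobase of the longest transcript, stacked by gene. The bars of the 3 control libraries reach 3138 to 3200 and those of the 3 dexamethasone libraries 2412 to 2670, with the loss in the segments of Tcf7l2 and Tcf7.

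The sequence before the transcript starts was read for the members that changed most, since beta-catenin with TCF/LEF, and the glucocorticoid receptor, act on genes through short DNA motifs. RefSeq entries were matched by symbol for 8 members, with 14 starts on the build GRCm38.p6, which differs from the build of the deposited counts, and Apc and Axin1 were not among them. In the 250 bases before each start, the TCF/LEF core was searched as CTTTGA or CTTTGT and the repeat unit that the glucocorticoid receptor recognizes as AGAACA, on both strands. Either TCF/LEF core was present in 5 of the 14 windows and in 27.6% of the 32851 windows of all entries (CTTTGA in 13.8%, CTTTGT in 16.5%). The receptor unit was present in 4 of the 14 windows and in 16.1% of all windows. The complete site, AGAACA and TGTTCT with 3 bases between them, was in none of the members' windows and in 3 of all windows (0.00913%). The windows printed are those of Axin2 (chr11:108920099-108920348, plus strand), of 2 starts of Tcf7l2 (chr19:55741560-55741809 and chr19:55895071-55895320, plus strand) and of the start of Lef1 that held the most matches (chr3:131156044-131156293, plus strand), with matches in capitals. The windows of both Tcf7 starts held neither motif, but both starts are internal. The first window holds the coding start of full-length TCF1, and the second window lies downstream of it. The sequence before the full-length start of Tcf7 was therefore not searched.
Axin2: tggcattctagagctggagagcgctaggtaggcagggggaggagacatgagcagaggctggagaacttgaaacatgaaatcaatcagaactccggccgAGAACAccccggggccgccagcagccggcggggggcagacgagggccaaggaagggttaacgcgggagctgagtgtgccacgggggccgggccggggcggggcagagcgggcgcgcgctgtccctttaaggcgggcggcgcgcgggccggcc
Tcf7l2 first start: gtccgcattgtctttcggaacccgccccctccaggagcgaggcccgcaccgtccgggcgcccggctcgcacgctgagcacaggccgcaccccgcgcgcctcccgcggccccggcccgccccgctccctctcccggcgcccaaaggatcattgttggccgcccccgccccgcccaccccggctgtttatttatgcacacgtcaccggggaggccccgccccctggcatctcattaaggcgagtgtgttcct
Tcf7l2 internal start: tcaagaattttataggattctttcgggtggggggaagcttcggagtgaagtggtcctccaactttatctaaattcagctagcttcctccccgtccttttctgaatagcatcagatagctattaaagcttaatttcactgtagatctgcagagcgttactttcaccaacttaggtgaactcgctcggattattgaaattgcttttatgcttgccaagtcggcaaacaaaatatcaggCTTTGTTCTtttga
Lef1 internal start: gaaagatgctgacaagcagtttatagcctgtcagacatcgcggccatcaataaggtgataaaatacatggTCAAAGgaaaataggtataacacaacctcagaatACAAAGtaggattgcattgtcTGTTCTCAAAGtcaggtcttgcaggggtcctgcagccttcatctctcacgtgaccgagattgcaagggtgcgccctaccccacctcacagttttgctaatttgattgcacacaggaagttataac

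The window of Axin2, the member that fell most, held 1 receptor unit and no TCF/LEF core. The first start of Tcf7l2 held neither, and its internal start held 1 CTTTGT that overlaps 1 receptor unit read from the other strand, so that both are printed as a single run of capitals. The internal start of Lef1, the member that rose most, held 2 copies of CTTTGA and 1 of CTTTGT, all on the other strand, and 1 receptor unit that overlaps a core. The other Lef1 starts held no core, and 1 of them held 1 receptor unit. A match in these letters is a description of the window and not evidence of binding, and the reads counted per gene do not show which start was used.

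The other parts of the destruction complex and its regulators were measured as a list of 22 genes, of which 21 were tested. With dexamethasone, 9 passed as higher and 7 as lower, against 37.2% and 35.2% of all tested genes, and the median log2 fold change was 0.05. The largest changes were losses. Dact1, which encodes a Dishevelled-binding antagonist of the pathway, had 2230, 2388 and 2291 normalized counts in the control replicates and 339.6, 306.3 and 261.6 in the dexamethasone replicates, a log2 fold change of -2.93 (adjusted p = 1.73e-21 in limma). Apc2, the second APC gene, had 629.8, 583.2 and 558.9 and then 210.8, 227.8 and 265.1 normalized counts, a log2 fold change of -1.33 (adjusted p = 1.48e-12 in limma). Apc2 and Axin2 were thus both past the cut-off as lower, whereas their paralogs Apc and Axin1 were not. The 3 genes of the list with the highest counts moved little. Csnk1a1, the priming kinase of beta-catenin, had a log2 fold change of -0.05 (95% interval -0.12 to 0.02, adjusted p = 0.172 in limma). That of the deubiquitinase gene Usp34 was 0.29 (adjusted p = 3.77e-08 in limma), and that of Tnks2, a tankyrase that marks axin for removal, was 0.04 (adjusted p = 0.355 in limma). The directions in this list depended on the scaling, with 5 higher and 11 lower at the same total, and 4 higher and 13 lower after quantile normalization. A noncoding gene on the opposite strand overlaps 34.9% of the exon bases of Dact1.

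Nuclear partners of beta-catenin and of TCF/LEF numbered 23, all tested. Of these, 11 passed as higher and 9 as lower, against 37.2% and 35.2% of all tested genes. Their median log2 fold change was 0.06. Bcl9l, a coactivator that joins beta-catenin to Pygopus, fell from 18863, 20194 and 19667 normalized counts in the control replicates to 9663, 8837 and 8866 in the dexamethasone replicates, a log2 fold change of -1.10 (adjusted p = 3.01e-18 in limma). Genes on the opposite strand overlap 9.65% of its exon bases. Tle4, a Groucho corepressor that TCF/LEF factors bind when beta-catenin is absent, had 333.3, 342.5 and 393.7 and then 147.9, 136.3 and 147.7 normalized counts, a log2 fold change of -1.30 (adjusted p = 3.43e-11 in limma). Of the 3 genes with the highest counts, the corepressor gene Ctbp1 had a log2 fold change of 0.66 (adjusted p = 3.48e-14 in limma), Tle5, a short Groucho relative, had -0.72 (adjusted p = 5.41e-14 in limma), and Tbl1x had -0.07 (adjusted p = 0.0667 in limma).

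Among 22 known targets of Wnt and beta-catenin signaling other than Axin2 and the TCF/LEF genes, 20 had a row and 15 were tested. With dexamethasone, 6 passed as higher and 8 as lower, against 37.2% and 35.2% of all tested genes, and the median log2 fold change was -0.14. Past the cut-off of 1 lay 2 higher and 6 lower, together 8 of 15 against 22.3% of all tested genes, and the 6 lower against 10.6%. Feedback inhibitors were among the losses. Rnf43, which encodes a ubiquitin ligase that removes Wnt receptors, had 1193, 1366 and 1259 normalized counts in the control replicates and 205.1, 184.2 and 147.7 in the dexamethasone replicates, a log2 fold change of -2.83 (adjusted p = 6.4e-19 in limma). Nkd2, which encodes an inhibitor of Dishevelled, had 35, 32 and 38 reads in the control replicates and 1, 2 and 3 reads in the dexamethasone replicates, a ratio of control over dexamethasone of 15.2 (exact interval for counting error 6.76 to 42.4). Ccn4 (WISP1), a matricellular protein gene, had 12286, 12406 and 12323 and then 2264, 2212 and 2174 normalized counts, a log2 fold change of -2.48 (adjusted p = 3.86e-26 in limma). The other losses past the cut-off, named after their values were seen, were Tnfrsf11b (osteoprotegerin) at -1.79, Ccn5 at -1.70 and Jag1 at -1.45 in log2 fold change. Like Axin2, all 6 had no overlap between the groups, against 74.7% of all tested genes. These 6 were named for lying past the cut-off, so their separation adds no support.

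Other targets rose. Sox9, which encodes the chondrocyte transcription factor, had 4326, 4762 and 4740 normalized counts in the control replicates and 18731, 16878 and 16608 in the dexamethasone replicates, a log2 fold change of 1.92 (adjusted p = 4.04e-22 in limma). Apcdd1, which encodes a membrane-bound Wnt inhibitor, had 37.6, 33.3 and 41.3 and then 197.5, 180.9 and 180.2 normalized counts, a log2 fold change of 2.29 (adjusted p = 2.57e-12 in limma). The targets with the highest counts beside Sox9, the cyclin D1 gene Ccnd1 and the hyaluronan receptor gene Cd44, had log2 fold changes of 0.55 (adjusted p = 4.56e-11 in limma) and 0.47 (adjusted p = 2.4e-11 in limma). Another gene overlaps 23.4% of the exon bases of Ccnd1 on the opposite strand. Targets were thus past the cut-off in both directions, 2 as higher and 6 as lower. The list was chosen with earlier results of these data known. Its numbers beside those of all tested genes are therefore a description and no independent support for a change of the pathway. Many of these genes are also controlled by other signals, and Lgr5, Nkd1, Notum, Cdx1 and Prox1 were under the mean of 10 normalized counts needed for the test.

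**Figure D5:**
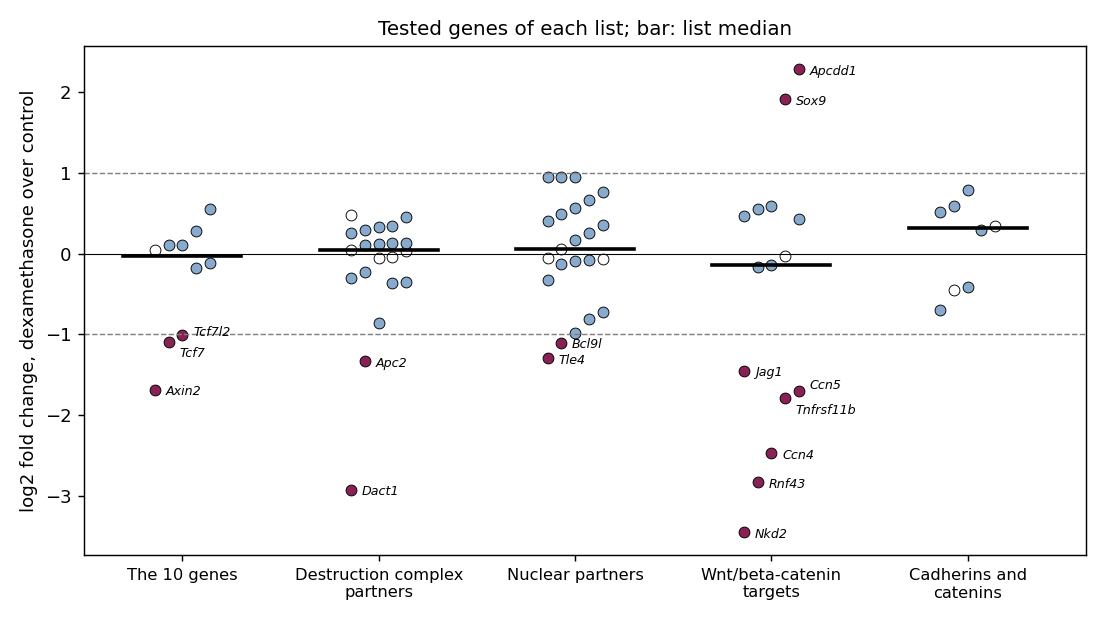
The log2 fold change of each tested gene in the 10 members and in 4 lists of partners and targets (points), with the median of each list as a bar and dashed lines at the cut-offs of -1 and 1. Filled blue points passed an adjusted p-value of 0.05, dark red points were also past the cut-off and are named, and open points did not pass. The medians lie between -0.14 and 0.32, and the targets reach farthest in both directions, from Nkd2 at -3.46 to Apcdd1 at 2.29.

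Cadherins and the catenins that link them to the cytoskeleton hold a second pool of beta-catenin at the membrane. Of 12 such genes, 8 were tested, of which 4 passed as higher and 2 as lower, against 37.2% and 35.2% of all tested genes. None lay past the cut-off of 1, against 22.3% of all tested genes, and the median log2 fold change was 0.32. This median covers genes near the limit of detection and moved between 0.07 without a filter on low values and 0.42 without dexamethasone replicate 3. The main cadherins of osteoblasts moved in opposite directions. Cdh11 had 63724, 68304 and 67353 normalized counts in the control replicates and 41361, 40142 and 41314 in the dexamethasone replicates, a log2 fold change of -0.70 (adjusted p = 3.37e-14 in limma). Cdh2, which encodes N-cadherin, had 10480, 11262 and 10721 and then 19512, 18145 and 18412 normalized counts, a log2 fold change of 0.79 (adjusted p = 1.47e-15 in limma). Ctnna1, which encodes alpha-catenin, the link to actin, had a log2 fold change of 0.30 (adjusted p = 4.74e-07 in limma). Both cadherins changed by more than Ctnnb1 did on the log2 scale, whereas neither passed the cut-off that Axin2, Tcf7 and Tcf7l2 passed.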

How the data were processed

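RNA sequencing libraries from 3 control and 3 dexamethasone samples were compared, grouped by the treatment in the labels. Reads were aligned and counted for each gene by the authors with STAR (version 2.7.10a), and DESeq2 (version 1.36.0) supplied the size factor by which each library's counts were divided, so the deposited values are these normalized counts, a signal per gene that is not in whole reads. The submitters' processing notes name the build GRCm39, while neither the release of the annotation nor the strand option of STAR's count is given in the sources used here. Because the kit marks strand but this setting is not known, overlapping genes on opposite strands are reported beside the members.

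The value of 1 read per library was found from the smallest steps, and 100% of the values were whole reads within a tolerance of 0.1. Depth was 72596611 to 89910728 recovered reads per library. Limits on 0 counts (3 reads) cover counting error only. Ensembl identifiers were given symbols through the GENCODE M21 annotation (28087 of 29616), which also gave transcript lengths and overlaps. Shared sequence was searched as stretches of 75 bases, and the members shared at most 0.183% of them with any other gene. Promoter sequences are from RefSeq.

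Genes averaging 10 or more normalized counts were compared with limma (3.58.1, R 4.3.3, mean-variance trend) on log2(normalized count + 1), with Benjamini-Hochberg adjustment over 17442 genes. Fold changes are therefore on the log2(value + 1) scale, which understates the change of low genes. The cut-offs, an adjusted p-value of 0.05 and a log2 fold change of 1, are those of the study's methods. Shares and ratios within libraries were compared by exact permutation tests. Scripts were tested on simulated data.

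Alternatives were other pseudocounts, low-value filters, scalings, a fit with no trend in limma, count models on the recovered reads by edgeR (4.0.16) or DESeq2 (1.42.0), a replicate block, leaving out each library, and for the shares and ratios another length and a pseudocount. The p-values measure the spread between these libraries, which may be in part technical. The 10 members and the lists of partners, targets and markers were chosen with earlier results of these data known. The text names all members, the 3 most abundant and up to 3 most changed genes of each pathway list in each direction, and the 3 most abundant of the marker lists where these bear on a member. Exceptions are stated.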

Additional observations from a re-analysis of the deposited data

How the results depend on the processing

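Axin2, Tcf7, Lef1, Gsk3b, Axin1 and Tcf7l2 kept their direction and an adjusted p-value under 0.05 in all 16 other settings, and Tcf7l2 alone crossed the cut-off of 1, without control replicate 2 (-0.9904), dexamethasone replicate 2 (-0.9943) or dexamethasone replicate 3 (-0.9802). Between 6 and 9 members passed in these settings, with 6 for limma without the trend, and 2 or 3 were past the cut-off. With the replicate block 7 members passed and 3 were past the cut-off, where Ctnnb1 (adjusted p = 0.0575 in limma) and Gsk3a (adjusted p = 0.0621 in limma) no longer passed. Same-numbered libraries did not deviate together (correlations of -0.0999, -0.105 and -0.0199). This cannot show whether they were prepared in pairs, which is not given in the sources used here. At the same total, log2 fold changes turned to -0.0020 for Apc, -0.012 for Gsk3a, -0.064 for Tcf7l1, -0.056 for Chd8, -0.011 for Ppp2r1a, -0.067 for Ppp2r5a and -0.076 for Tnks2. After quantile normalization they turned to -0.074 for Apc, -0.054 for Gsk3a, -0.13 for Tcf7l1, -0.030 for Btrc, -0.13 for Chd8, -0.050 for Gid8, -0.092 for Ppp2ca, -0.090 for Ppp2r1a, -0.16 for Ppp2r5a and -0.13 for Tnks2. With 1 library removed at a time, Tcf7l1 lay between -0.0037 and 0.081. Among destruction complex partners, 5 passed as higher and 11 as lower at the same total, and 4 and 13 after quantile normalization. The other 124 list counts moved by at most 1.5 times, and all 56 other values of the shares and ratios kept their direction. Over all genes, 3894 were past both cut-offs, 3944 with edgeR, 3870 with DESeq2, 3897 with the replicate block and 2170 with a mean of at least 100, and the split was 2037 higher and 1857 lower as reported and 1775 and 2163 at the same total. With 3 libraries per group, no exact permutation p could be under 0.1, and whether the small differences of Gsk3a, Apc, Ctnnb1 and Tcf7l1 passed depended on the scaling, the library left out or the fit.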

Other observations

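Several families that work with the 10 genes were split between their members, as the axins were. Others moved together, with log2 fold changes of 0.66 and 0.76 for Ctbp1 and Ctbp2. Those of Csnk1d and Csnk1e were 0.26 and 0.33, and those of Crebbp and Ep300 -0.13 and -0.07. Of all tested genes, 37.2% passed as higher and 35.2% as lower, so opposite directions are common among any genes. The families named here were picked after their values were seen, and the differences between members of a family were not tested. The Groucho corepressors, which TCF/LEF factors recruit to silence targets, showed log2 fold changes of 0.95 for Tle1 (adjusted p = 2.89e-14 in limma), 0.40 for Tle3 (adjusted p = 1.35e-08 in limma), -0.98 for Tle2 (adjusted p = 3.23e-14 in limma) and -0.32 for Tle6 (adjusted p = 0.000102 in limma). In normalized counts, Tle1 had 803.3, 873.8 and 851.5 in the control replicates and 1692, 1602 and 1603 in the dexamethasone replicates, whereas Tle2 had 1637, 1721 and 1754 and then 805.1, 886.2 and 900. For both genes the groups were far apart beside their spread.

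The Dishevelled genes, which carry the Wnt signal from the receptors to the destruction complex, were split in the same way. Dvl3 had 13220, 13933 and 13758 normalized counts in the control replicates and 7993, 7201 and 7334 in the dexamethasone replicates, a log2 fold change of -0.86 (adjusted p = 5.74e-16 in limma). Dvl1 and Dvl2 had log2 fold changes of 0.35 (adjusted p = 1.91e-08 in limma) and 0.45 (adjusted p = 1.71e-10 in limma), and 18.3% of the exon bases of Dvl2 are overlapped on the opposite strand. The Pygopus genes, whose products are joined to beta-catenin by Bcl9 proteins, showed -0.81 for Pygo1 (adjusted p = 8.82e-14 in limma) and 0.56 for Pygo2 (adjusted p = 1.93e-12 in limma). Znrf3, the paralog of Rnf43, had a log2 fold change of 0.43 (adjusted p = 2.21e-09 in limma), against -2.83 for Rnf43. Ctnnbip1, which encodes an inhibitor that blocks beta-catenin from TCF/LEF, had a log2 fold change of 0.95 (adjusted p = 8.98e-13 in limma), and a gene on the opposite strand overlaps 25.8% of its exon bases.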
